A study of Rattus norvegicus with 17 samples.

Results

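The heat shock proteins and cochaperones of rat cortical cultures are described here: the cytosolic and mitochondrial Hsp70, Hsp90, Hsp110, Hsp60 and small heat shock protein genes, the J-domain genes, the Bag genes and the heat shock factors. Members were taken by gene symbol (symbols opening with Hsp or Dnaj, Bag1 to Bag6, Hsf followed by a digit, and Cryab), without the ER chaperones Hspa5, Hsp90b1, Dnajb9, Dnajb11 and Dnajc3 and without the matrix proteoglycan Hspg2. The rule found 66 of the 11247 genes in the deposited table, and all 66 passed the filter on low values. Messenger RNA was read in 17 libraries of primary rat cortical cultures that hold glutamatergic neurons and astrocytes. The cultures were infected to express α-synuclein with the A53T change, a form that causes familial Parkinson's disease in humans, or carried an empty vector; the virus and its promoter are not given in the sources used here. Each was given DMSO, the solvent, or FK506 at 0.2 µM, a dose the labels call sub-saturating, or at 2.0 µM, which they call saturating. FK506 binds the immunophilin FKBP12, and the pair inhibits calcineurin, a phosphatase that calcium activates. The A53T cultures have 2 libraries in DMSO, 3 at 0.2 µM and 3 at 2.0 µM, and the vector cultures have 3 libraries in each of the same conditions.

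As background, chaperones bind unfolded segments of proteins and keep them from aggregating. Hsp70 proteins do so in cycles driven by ATP: J-domain proteins bring the client and start hydrolysis, and nucleotide exchange factors of the Hsp110 and Bag families reset the cycle. Small heat shock proteins hold unfolded clients without ATP, and Bag3 links them and Hsp70 to autophagy. When unfolded protein builds up, heat shock factor 1 (Hsf1) binds heat shock elements in promoters and raises a subset of these genes, while many others are made at a steady level. FK506 also binds some Hsp90 cochaperones of the FKBP family.

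The authors deposited normalized gene counts, called normalized counts below. Whether they are corrected for gene length is not stated, so levels are compared between samples and never between genes. Library values listed for a gene are normalized counts. Library totals lay between 15091428 and 18335540 normalized counts; raw depth is unknown. A change is given as a log2 fold change ± standard error (SE) on the log2(normalized count + 1) scale, which understates changes of low genes. "Rose" and "fell" are used for limma's adjusted p under 0.05 over all 11247 genes. The labels do not say whether libraries of one group are from different cultures, so the p-values reflect the spread among these libraries alone, and that spread may be technical. In bulk samples, fewer cells of a type and less RNA per cell cannot be told apart.

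Some libraries stood apart. Squared differences within A53T at 0.2 µM were 0.995 to 1.05 times those of Poisson sampling, taken on the normalized values. Pairs from other groups had ratios of 1.48 to 14.5. Normalization scales this ratio and raw depth is unknown, so it does not establish that those libraries differ by sampling noise alone. The 3 libraries of A53T at 0.2 µM differed least, and they were averaged and counted as 1 sample. They also differed in shape, with a median gene at 588.7 to 592.1 normalized counts against 490.7 to 520.1 in all other libraries, and they are described last. Among A53T libraries at 2.0 µM replicate 1, and among vector libraries replicate 2 at 2.0 µM and replicate 1 at 0.2 µM, lay away from the rest of their group, and counts below are given with and without these 3. Markers of astrocytes (9 of 9 listed) and neurons (8 of 8) were measured in every library, and of 5 listed microglial markers none was in the table.

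At 2.0 µM FK506 the chaperone genes of vector cultures changed more often upward than downward. Of the 66 members 21 rose (31.8%) and 9 fell (13.6%), against 23.4% of all genes higher and 23.8% lower. The median member differed by 0.13 on the log2 scale and the median gene by 0.00. Without the 3 libraries that stand apart 27 rose and 11 fell, and 61.2% of all genes were called. Set against vector at 0.2 µM instead, 29 members (43.9%) were higher at 2.0 µM and 6 (9.09%) lower, with 18% and 15.7% of all genes. Without the 3 libraries 33 were higher and 10 lower, and 48% of all genes were called. A53T cultures at 2.0 µM had 16 members higher (24.2%) and 8 lower (12.1%) than A53T in DMSO, with 19.7% and 17.9% of all genes, and 17 and 11 without those libraries, where 48.3% of all genes were called. The A53T count was sensitive to the DMSO pair: 9 members were called without replicate 1 of A53T in DMSO, with 18.7% of all genes, and 11 without its other library, with 16.3%.

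Apart from those with A53T at 0.2 µM, the other comparisons called fewer members. Between A53T and vector in DMSO, 5 members were higher (7.58%) and 2 lower (3.03%), against 5.85% and 8.19% of all genes. This count was 14 higher and 9 lower without the 3 libraries that stand apart, with 39% of all genes called, and 2 in all without replicate 1 of A53T in DMSO, with 3.67% of all genes called. Vector at 0.2 µM had 5 members higher (7.58%) and 6 lower (9.09%) than vector in DMSO, against 7.7% and 10.6% of all genes; without those 3 libraries it was 15 and 21, with 52.4% of all genes called. Between A53T and vector at 2.0 µM, 2 members were higher (3.03%) and 10 lower (15.2%), against 9.88% and 9.7% of all genes, and 7 and 14 without the 3, with 33.5% of all genes called. The interaction, which asks whether 2.0 µM moved a gene differently in A53T than in vector, called 1 member higher (1.52%) and 8 lower (12.1%), against 8.14% and 6.45% of all genes. Without the 3 libraries it called 4 and 16, and 37.8% of all genes. The comparisons share samples: vector in DMSO enters 3 of them and the interaction, so their values are given side by side and are not independent.

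**Figure D1:**
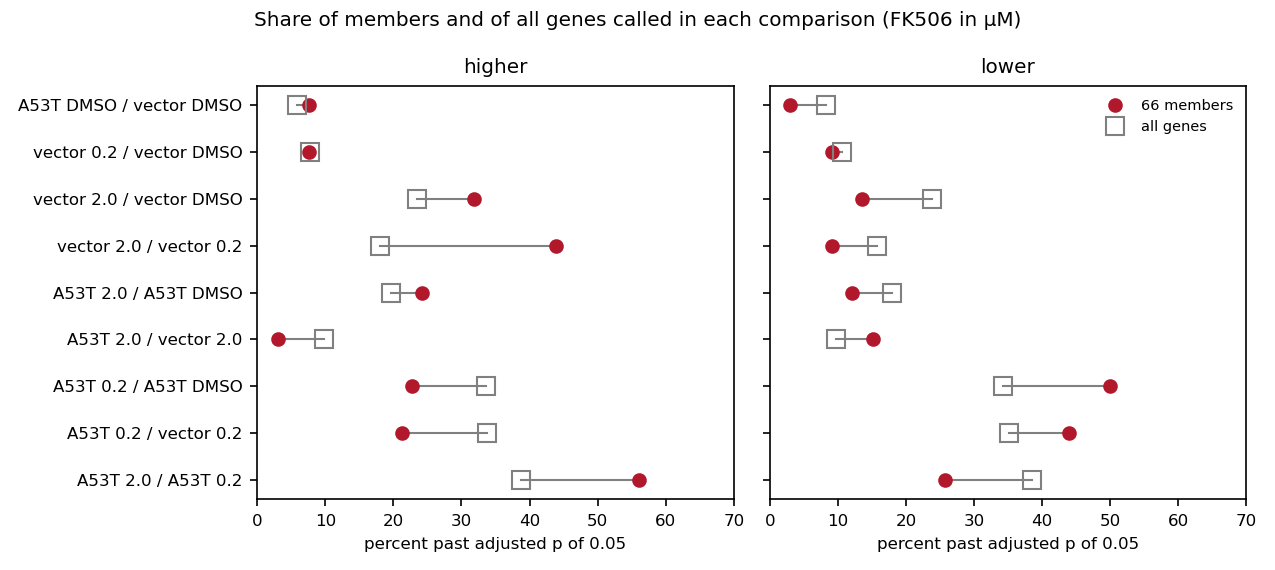
Share of the members (red dots, %) and of all genes (grey squares, %) called higher, in the left panel, or lower, in the right panel, in each comparison. In vector at 2.0 µM over DMSO 31.8% of members against 23.4% of all genes were higher, and in the A53T comparisons at 0.2 µM lower calls reach 50% of members.

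Inducible Hsp70 and its cochaperone Bag3 rose at 2.0 µM FK506 in vector cultures, while in A53T cultures their change at that dose did not pass the test. Hspa1a and Hspa1b, which encode the heat-inducible cytosolic Hsp70, and Bag3 were each higher in A53T than in vector when no drug was given. At 2.0 µM each ended in A53T below the vector level at that dose.

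Hspa1a had 398 and 369 in DMSO, 142, 137 and 132 at 0.2 µM and 507, 381 and 392 at 2.0 µM in A53T cultures. Vector cultures had 189.8, 201 and 169 in DMSO, 275, 162 and 205 at 0.2 µM and 815, 928 and 681 at 2.0 µM. All 3 vector libraries at 2.0 µM lay above every other library, and both A53T libraries in DMSO lay above every vector library in DMSO. In vector cultures Hspa1a rose 4.33-fold at 2.0 µM (2.10 ± 0.18, adjusted p = 1.37e-06). Between A53T and vector in DMSO it was 2.05-fold higher (1.04 ± 0.20, adjusted p = 0.00488), a call that held in 25 of 27 alternatives and not without replicate 1 of A53T in DMSO. The change at 2.0 µM in A53T was 0.14 ± 0.20 with adjusted p = 0.584. The difference between those responses was -1.96 ± 0.27 (adjusted p = 8.43e-04).

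Hspa1b had 2591 and 2741 in DMSO, 1911, 1967 and 1905 at 0.2 µM and 2443, 2551 and 2786 at 2.0 µM in A53T cultures. Vector cultures had 1281, 1282 and 1361 in DMSO, 1777, 1619.9 and 1999 at 0.2 µM and 4410.0, 4488 and 4666 at 2.0 µM. The vector values rise with dose and no 2 vector groups overlap, whereas the A53T libraries in DMSO and at 2.0 µM do overlap. The rise in vector was 0.45 ± 0.07 (adjusted p = 0.00189) at 0.2 µM and 1.79 ± 0.07 (adjusted p = 1.67e-08) at 2.0 µM. A53T in DMSO was above vector in DMSO (1.03 ± 0.08, adjusted p = 2.63e-05). At 2.0 µM A53T moved by -0.04 ± 0.08 (adjusted p = 0.707), and the interaction was -1.83 ± 0.11 (adjusted p = 1.74e-06). Hspa1a and Hspa1b are near-identical copies whose reads the counting could split or drop, so their separate levels are uncertain. Their summed means were 2.04-fold higher in A53T than in vector in DMSO, 3.57-fold higher at 2.0 µM than in DMSO in vector and 0.99-fold in A53T.

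Bag3 had 419 and 381 in DMSO, 296, 330.3 and 331 at 0.2 µM and 433, 362 and 444 at 2.0 µM in A53T cultures. Vector cultures had 255, 226 and 286 in DMSO, 282, 260.2 and 283 at 0.2 µM and 725, 728 and 729.6 at 2.0 µM. The 3 vector libraries at 2.0 µM were nearly equal and above every other library. Bag3 rose in vector at 2.0 µM (1.51 ± 0.10, adjusted p = 2.38e-07). It was higher in A53T than in vector in DMSO (0.65 ± 0.11, adjusted p = 0.00276), a call that did not hold without replicate 1 of A53T in DMSO. At 0.2 µM vector differed from DMSO by 0.11 ± 0.10 (adjusted p = 0.465). At 2.0 µM A53T was below vector (-0.82 ± 0.10, adjusted p = 2.00e-04), and the interaction was -1.47 ± 0.15 (adjusted p = 1.23e-04). For Hspa1a, Hspa1b and Bag3 the interaction call held in all 27 alternatives, the only members of which this is so.

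**Figure D2:**
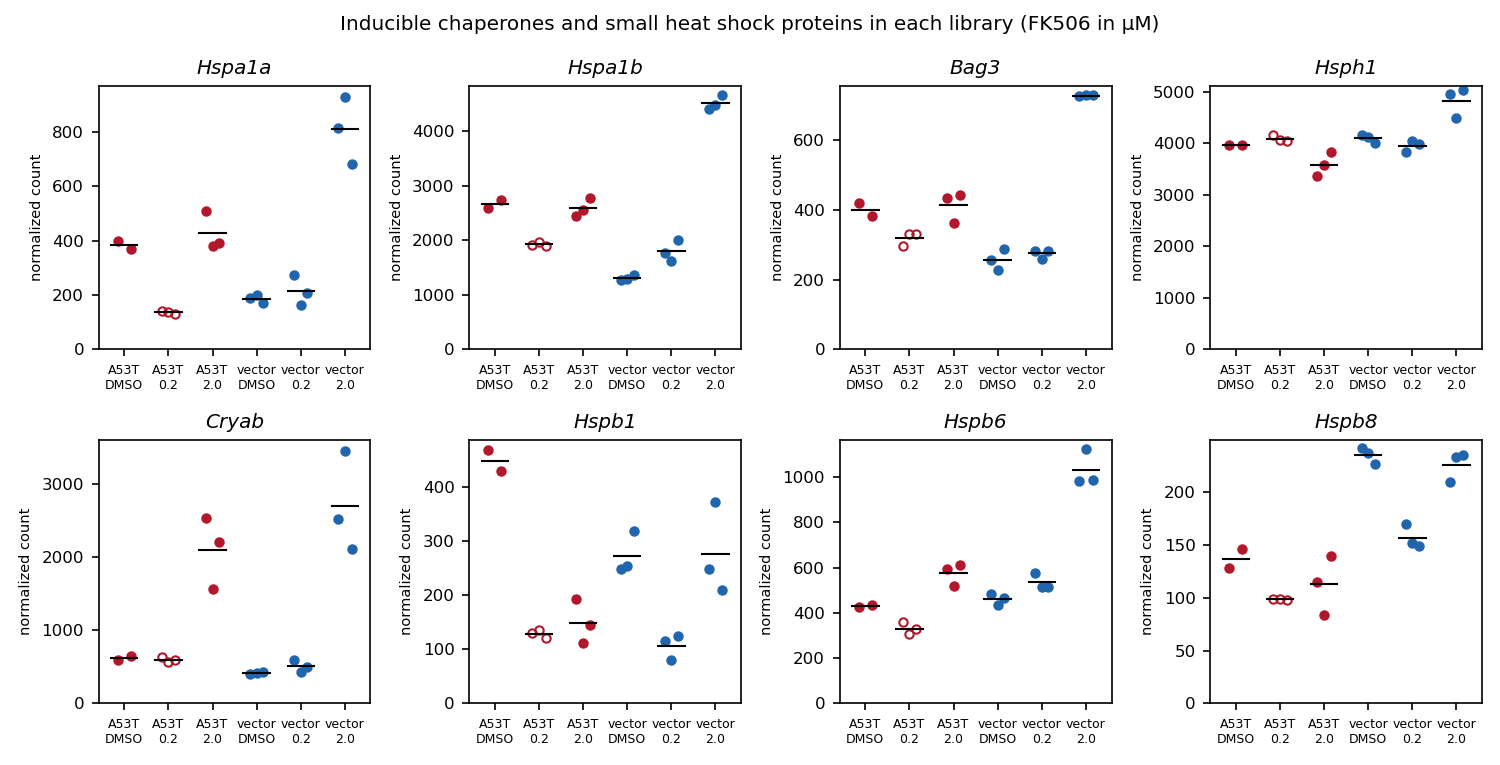
Normalized counts of inducible Hsp70, Bag3, Hsph1 and 4 small heat shock protein genes in each library (dots) with group means (bars), A53T groups in red left of vector groups in blue, each by FK506 dose in µM; open circles are the 3 libraries counted as 1 sample. Hspa1a, Hspa1b and Bag3 are high in all 3 vector libraries at 2.0 µM and in none of the A53T libraries at that dose.

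Promoters of members were searched for heat shock elements, the sites that Hsf1 binds. RefSeq's table of the rat build GRCr8 held 52 promoters of 51 members, and the 250 bases before each start were searched on both strands. A heat shock element of 2 inverted units was written as GAANNTTC or TTCNNGAA, and one of 3 units as either form followed by a further inverted unit after 2 free bases; every 3-unit match also holds 2-unit matches. The 2-unit element was found in 15 of the 52 member promoters and in 13.5% of all 33469, and the 3-unit one in 4 of 52 and in 0.663% of all. The 4 with 3 units were those of Hspa8, Hsph1, Hspd1 and Hspe1, of which the last pair share a divergent start region. A match is a description of letters and not of binding. The sequences below, shown since their genes lead the rises or carry the densest elements, run 5′ to 3′ on the plus strand, with matches in capitals.

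Hspa1a (chr20:3859506-3859755): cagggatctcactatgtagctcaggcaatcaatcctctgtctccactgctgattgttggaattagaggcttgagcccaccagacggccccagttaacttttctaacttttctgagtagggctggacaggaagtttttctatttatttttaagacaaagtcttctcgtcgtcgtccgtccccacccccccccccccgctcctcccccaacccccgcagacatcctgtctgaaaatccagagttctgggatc

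Bag3 (chr1:192533210-192533459): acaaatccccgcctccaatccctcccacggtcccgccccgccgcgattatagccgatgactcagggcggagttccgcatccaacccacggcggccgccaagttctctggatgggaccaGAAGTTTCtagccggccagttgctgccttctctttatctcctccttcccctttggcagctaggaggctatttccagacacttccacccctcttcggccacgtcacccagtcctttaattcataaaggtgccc

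Hspb6 (chr1:94934122-94934371): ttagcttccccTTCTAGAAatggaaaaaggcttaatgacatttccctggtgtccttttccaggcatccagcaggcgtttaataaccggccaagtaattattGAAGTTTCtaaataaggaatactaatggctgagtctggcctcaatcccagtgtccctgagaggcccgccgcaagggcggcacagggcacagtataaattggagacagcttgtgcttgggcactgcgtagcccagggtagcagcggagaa

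Hspa8 (chr8:50080264-50080513): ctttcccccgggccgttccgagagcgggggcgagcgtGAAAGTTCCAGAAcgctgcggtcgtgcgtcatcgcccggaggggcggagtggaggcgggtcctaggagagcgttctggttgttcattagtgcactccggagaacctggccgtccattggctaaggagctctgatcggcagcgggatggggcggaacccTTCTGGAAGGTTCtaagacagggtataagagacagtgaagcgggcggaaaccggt

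Bag3 held 1 such match, 132 bases before the start, and Hspb6 held 2, at 239 and 149 bases. The 2-unit element also lay in promoters of members that did not rise in vector at 2.0 µM. Hspb1 held 2 matches, and Hspb8, Dnaja1, Dnajb1, Dnajb6, Dnajc18, Dnajc27 and Hspa2 held 1 each. Hspa9, which rose, held 1. Hspa8 held 2 elements of 3 units, which begin 213 and 55 bases before its start. At 2.0 µM in vector Hspe1 and Hsph1, of the 4 with 3 units, rose by 0.33 and 0.23 on the log2 scale, and Hspa8 and Hspd1 differed by 0.08 and 0.04, which did not pass. The Hspa1a window held no match, and Hspa1a rose by 2.10. No match in this window says only that these letters are not there. Hspa1b and Cryab are named without a promoter.

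Small heat shock proteins differed in how they moved. Cryab rose at 2.0 µM in both genotypes, Hspb6 rose in both but less in A53T, Hspb1 fell in vector at 0.2 µM and in A53T at 2.0 µM, and Hspb8 was lower in A53T. Of these 4 members 2 rose and none fell in vector at 2.0 µM, and 2 rose and 1 fell in A53T. Of all genes 23.4% were higher and 23.8% lower in vector, and 19.7% and 17.9% in A53T.

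Cryab, αB-crystallin, is a small heat shock protein of lens, muscle and glia. It had 592 and 647 in DMSO, 632, 566 and 596 at 0.2 µM and 2532, 1554 and 2204 at 2.0 µM in A53T cultures. Vector cultures had 395, 413 and 431 in DMSO, 587, 432 and 493 at 0.2 µM and 2516, 3441 and 2112 at 2.0 µM. All 6 libraries at 2.0 µM were above all 11 others, and the genotypes overlapped at that dose. It rose 6.51-fold on means in vector (2.67 ± 0.19, adjusted p = 3.62e-07) and also rose in A53T (1.73 ± 0.21, adjusted p = 1.13e-04). The interaction, -0.94 ± 0.28 (adjusted p = 0.0437), held in 16 of 27 alternatives. Cryab overlaps Hspb2 in the RefSeq annotation, and the strand setting of the counting is not stated, so reads of that gene cannot be told apart.

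Hspb6, Hsp20, had 424 and 434 in DMSO, 359, 305 and 328 at 0.2 µM and 594, 519 and 611 at 2.0 µM in A53T cultures. Vector cultures had 484, 434 and 467 in DMSO, 574, 516 and 514 at 0.2 µM and 983, 1123 and 987 at 2.0 µM. No A53T library at 2.0 µM reached the lowest vector library at that dose. It rose in vector (1.16 ± 0.08, adjusted p = 4.73e-07) and in A53T (0.42 ± 0.09, adjusted p = 0.00526), with an interaction of -0.74 ± 0.13 (adjusted p = 0.00315). Hspb6 overlaps Lin37 in the annotation.

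Hspb1, Hsp27, had 468 and 429 in DMSO, 129, 136 and 121 at 0.2 µM and 192, 112 and 144 at 2.0 µM in A53T cultures. Vector cultures had 248, 254 and 319 in DMSO, 116, 80.6 and 124 at 0.2 µM and 249, 373 and 209 at 2.0 µM. Both A53T libraries in DMSO stood above every other library, and the vector libraries at 0.2 µM stood below those of vector in DMSO and at 2.0 µM. Hspb1 fell in vector at 0.2 µM (-1.36 ± 0.24, adjusted p = 0.00286) but at 2.0 µM differed from DMSO by -0.02 ± 0.24, which did not pass. In A53T it fell at 2.0 µM (-1.61 ± 0.27, adjusted p = 7.93e-04). The A53T against vector difference in DMSO, 0.72 ± 0.27 (adjusted p = 0.0941), did not pass, and the interaction was -1.60 ± 0.36 (adjusted p = 0.0124).

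Hspb8, the partner of Bag3 in chaperone-assisted autophagy, had 128 and 146 in DMSO, 98.5, 99.1 and 98.02 at 0.2 µM and 115, 84.04 and 139.8 at 2.0 µM in A53T cultures. Vector cultures had 241, 237 and 227 in DMSO, 169.7, 152 and 149 at 0.2 µM and 209.7, 233 and 235 at 2.0 µM. All A53T libraries lay below all vector libraries. It was lower in A53T than in vector in DMSO (-0.78 ± 0.17, adjusted p = 0.0103), a call that held in 25 of 27 alternatives and not without replicate 1 of A53T in DMSO, and also at 2.0 µM (-1.02 ± 0.15, adjusted p = 8.58e-04). Bag3 and Hspb8 thus went opposite ways between A53T and vector in DMSO. In vector Hspb8 fell at 0.2 µM (-0.58 ± 0.15, adjusted p = 0.0216) and at 2.0 µM differed by -0.06 ± 0.15 (adjusted p = 0.772).

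**Figure D3:**
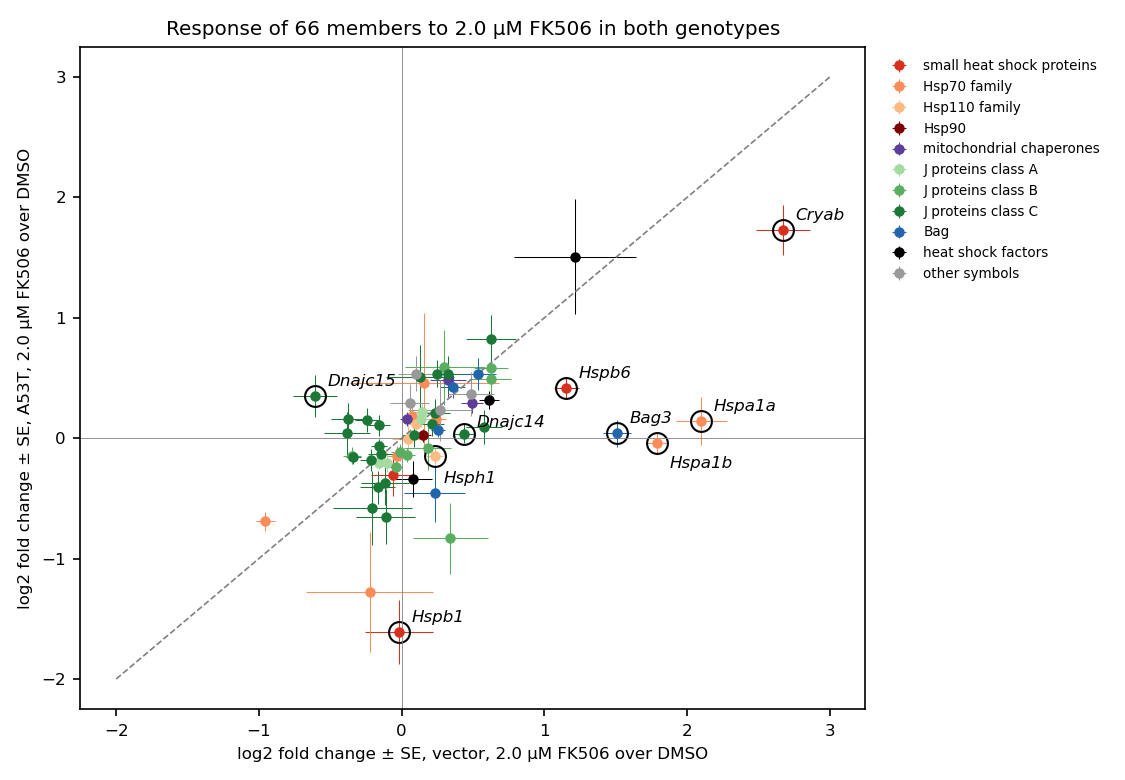
Log2 fold change of each member at 2.0 µM FK506 over DMSO in A53T cultures against that in vector cultures, coloured by role, with SE bars; members that passed the interaction test are circled and named, and the dashed line marks equal change. Hspa1a, Hspa1b and Bag3 lie near 0 on the A53T axis and between 1.51 and 2.10 on the vector axis.

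Heat shock factors sit upstream of these genes. Hsf1, the main activator, had 1054 and 974 in DMSO, 896, 870.0 and 874 at 0.2 µM and 1400.1, 1218 and 1183 at 2.0 µM in A53T cultures. Vector cultures had 944, 1033 and 1047 in DMSO, 1237, 1198 and 1179 at 0.2 µM and 1565, 1515 and 1538 at 2.0 µM. The vector groups did not overlap and rose in order of dose. Hsf1 rose in vector at 0.2 µM (0.26 ± 0.07, adjusted p = 0.0229) and at 2.0 µM (0.61 ± 0.07, adjusted p = 1.44e-05), and in A53T at 2.0 µM (0.32 ± 0.08, adjusted p = 0.00777); the interaction of -0.29 ± 0.10 did not pass (adjusted p = 0.0748). These are levels of Hsf1 mRNA; the factor is known to be switched mainly as a protein, which was not measured.

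Hsf4, known for its part in the lens, had low values, 3.54 and 10.7 in DMSO, 8.03, 12.7 and 5.03 at 0.2 µM and 29.8, 12.01 and 21.1 at 2.0 µM in A53T cultures. Vector cultures had 8.88, 8.17 and 7.08 in DMSO, 10.9, 5.72 and 5.07 at 0.2 µM and 14.6, 27.9 and 19.2 at 2.0 µM. It was higher at 2.0 µM than in DMSO in both genotypes, in vector (1.21 ± 0.43, adjusted p = 0.0326) and in A53T (1.51 ± 0.48, adjusted p = 0.0267). These calls held in 18 of 26 and 23 of 26 alternatives, and Hsf4 overlaps Nol3 and Matcap1 in the annotation. Hsf2, which can form trimers with Hsf1, had 896 and 839 in DMSO, 1104, 1075 and 1115 at 0.2 µM and 523, 767 and 799 at 2.0 µM in A53T cultures. Vector cultures had 767, 751 and 653 in DMSO, 716, 752 and 793 at 0.2 µM and 778, 708 and 808 at 2.0 µM. The vector groups overlap throughout. At 2.0 µM over DMSO it differed by 0.08 ± 0.13 in vector and -0.34 ± 0.15 in A53T, and neither passed.

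Some cytosolic chaperones are made steadily. Hspa8, the constitutive Hsc70 of the cytosol, had 18579.7 and 18386 in DMSO, 12272, 11881 and 12021 at 0.2 µM and 23047, 19703 and 20239 at 2.0 µM in A53T cultures. Vector cultures had 21498, 21152 and 22173 in DMSO, 20764, 18604 and 18507 at 0.2 µM and 22685, 23553 and 22114 at 2.0 µM. Outside A53T at 0.2 µM no group stood clear of all the others. At 2.0 µM over DMSO it differed by 0.08 ± 0.07 in vector (adjusted p = 0.381) and by 0.18 ± 0.08 in A53T (adjusted p = 0.075). It was higher in vector at 2.0 µM than at 0.2 µM (0.24 ± 0.07, adjusted p = 0.0153), held in 23 of 27 alternatives, and lower in A53T at 0.2 µM than in A53T in DMSO (-0.62 ± 0.10, adjusted p = 2.62e-04). Hsp90ab1, the constitutive cytosolic Hsp90, rose in vector at 2.0 µM (0.15 ± 0.05, adjusted p = 0.0263) and differed by 0.02 ± 0.06 in A53T, which did not pass. The vector call held in 19 of 27 alternatives. Hsp90aa1, the inducible form, was not found under that symbol in the deposited table, so it has no value here.

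Hsph1, an inducible Hsp110 that exchanges nucleotide on Hsp70, had 3970.0 and 3976 in DMSO, 4155, 4067 and 4055 at 0.2 µM and 3357, 3571 and 3838 at 2.0 µM in A53T cultures. Vector cultures had 4172, 4118 and 4011 in DMSO, 3837, 4039.8 and 3994 at 0.2 µM and 4958, 4487 and 5030.3 at 2.0 µM. The 3 vector libraries at 2.0 µM were the highest of all, and every A53T library at that dose was below every library in DMSO of either genotype. Hsph1 rose in vector (0.23 ± 0.06, adjusted p = 0.00565) and differed in A53T by -0.15 ± 0.07 (adjusted p = 0.0887). The interaction was -0.38 ± 0.09 (adjusted p = 0.0145), and the A53T against vector difference at 2.0 µM was -0.43 ± 0.06 (adjusted p = 4.59e-04). Its relatives Hspa4 and Hspa4l differed by 0.10 ± 0.05 and 0.04 ± 0.11 in vector at 2.0 µM, and neither passed.

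The remaining Hsp70 family members went both ways. Hspa12a, a distant family member, had 1551 and 1594 in DMSO, 2276, 2236 and 2351 at 0.2 µM and 944, 1028 and 952 at 2.0 µM in A53T cultures. Vector cultures had 2242, 2199 and 2076 in DMSO, 2001, 2212 and 1993 at 0.2 µM and 1169, 1019 and 1179.9 at 2.0 µM. The 6 libraries at 2.0 µM were the lowest of all. It fell in vector (-0.95 ± 0.07, adjusted p = 4.41e-07) and in A53T at 2.0 µM (-0.69 ± 0.08, adjusted p = 6.24e-05), and was lower in A53T than in vector in DMSO (-0.47 ± 0.08, adjusted p = 0.00206), the last held in 26 of 27 alternatives. Hspa14, a ribosome-associated Hsp70, rose in vector at 2.0 µM (0.24 ± 0.07, adjusted p = 0.0121). Hspa2 and Hspa1l did not pass in any comparison of vector cultures or of 2.0 µM with DMSO. Hspa1l overlaps Hspa1a in the annotation and ran from 3.54 to 20.5 normalized counts over the 17 libraries.

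Of the 3 mitochondrial chaperones 2 rose in vector at 2.0 µM and all 3 in A53T, where 23.4% and 19.7% of all genes were higher. Hspe1, Hsp10, had 1983 and 1866 in DMSO, 885, 864 and 857 at 0.2 µM and 3223, 2479 and 2443 at 2.0 µM in A53T cultures. Vector cultures had 1968, 2097 and 2271 in DMSO, 2171, 1683 and 1724 at 0.2 µM and 2524, 3026 and 2423 at 2.0 µM. The groups at 2.0 µM lay above those in DMSO in both genotypes. It rose in vector (0.33 ± 0.13, adjusted p = 0.0472), which held in 16 of 27 alternatives, and in A53T (0.48 ± 0.14, adjusted p = 0.0179). Hspd1, Hsp60, with which Hspe1 shares its start region and overlaps, had 7013 and 7039 in DMSO, 5559.9, 5404 and 5408 at 0.2 µM and 8155, 7764 and 7617 at 2.0 µM in A53T cultures. Vector cultures had 6848, 7201 and 7055 in DMSO, 7137, 6348 and 6467 at 0.2 µM and 7295, 7079 and 7302 at 2.0 µM. It differed by 0.04 ± 0.05 in vector, which did not pass, and rose in A53T (0.16 ± 0.06, adjusted p = 0.0495), a call held in 12 of 27 alternatives. Hspa9, the mitochondrial Hsp70, rose in vector (0.49 ± 0.08, adjusted p = 1.72e-04) and in A53T (0.29 ± 0.08, adjusted p = 0.0175).

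Of the Bag genes only Bag3 passed the interaction test. In vector at 2.0 µM 4 of the 5 Bag members rose, against 23.4% of all genes, and in A53T 2 did, against 19.7%. Bag1, an exchange factor that links Hsp70 to the proteasome, rose in vector (0.54 ± 0.12, adjusted p = 0.00272) and in A53T (0.53 ± 0.14, adjusted p = 0.0097). Bag2, an inhibitor of the ubiquitin ligase Chip, rose in vector (0.36 ± 0.09, adjusted p = 0.0043) and in A53T (0.43 ± 0.10, adjusted p = 0.00519). Bag6, which guards tail-anchored proteins, rose in vector (0.26 ± 0.05, adjusted p = 9.39e-04) and differed in A53T by 0.07 ± 0.05. Bag4, also called silencer of death domains, rose in vector at 0.2 µM (0.72 ± 0.21, adjusted p = 0.0362) and differed at 2.0 µM by 0.23 ± 0.21, which did not pass.

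J-domain genes of classes A and B, the usual partners of cytosolic Hsp70, went both ways, beside the same shares of all genes as above. In vector at 2.0 µM none of 4 class A members rose and 1 fell, and of 9 class B members 2 rose and 1, Dnajb12 of the ER membrane, fell (-0.35 ± 0.06, adjusted p = 4.84e-04). In A53T at 2.0 µM 1 rose and 1 fell in class A, and 2 rose and 2 fell in class B; the rise in class A was that of mitochondrial Dnaja3 (0.22 ± 0.07, adjusted p = 0.0269), held in 22 of 27 alternatives, and Dnajb5 was among the falls (-0.24 ± 0.05, adjusted p = 0.003). Changes of class A members ran from -0.16 to 0.15 in vector and from -0.21 to 0.22 in A53T, and those of class B from -0.35 to 0.63 in vector and from -0.83 to 0.59 in A53T. Dnajb1, the inducible Hsp40, had 1712 and 1704 in DMSO, 966, 966 and 946 at 0.2 µM and 1629.6, 1608 and 1494 at 2.0 µM in A53T cultures. Vector cultures had 1649, 1765 and 1712 in DMSO, 1561, 1341 and 1371 at 0.2 µM and 1737, 1692 and 1665 at 2.0 µM. Vector in DMSO and at 2.0 µM overlap. In vector Dnajb1 differed by -0.01 ± 0.06 at 2.0 µM (adjusted p = 0.919) and fell at 0.2 µM (-0.27 ± 0.06, adjusted p = 0.013).

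Dnajb2, a J protein rich in neurons, rose in both genotypes at 2.0 µM, in vector (0.63 ± 0.12, adjusted p = 8.22e-04) and in A53T (0.58 ± 0.13, adjusted p = 0.00541). Dnajb13, a protein of sperm and cilia axonemes, rose in vector (0.62 ± 0.14, adjusted p = 0.00325) and in A53T (0.49 ± 0.16, adjusted p = 0.0311). Dnaja1, a general partner of Hsp70, fell in vector (-0.16 ± 0.04, adjusted p = 0.00915) and in A53T (-0.21 ± 0.05, adjusted p = 0.00558). Dnajb6, which blocks aggregation of polyglutamine proteins, differed by 0.04 ± 0.05 and -0.14 ± 0.06, and neither passed. Dnajb4 had 635 and 632 in DMSO, 1075, 1066 and 1065 at 0.2 µM and 214, 411 and 510.4 at 2.0 µM in A53T cultures. Vector cultures had 592, 475 and 458 in DMSO, 513, 658 and 730.5 at 0.2 µM and 663, 506 and 783 at 2.0 µM. The A53T libraries at 2.0 µM range widely, and the fall there of -0.83 ± 0.30 (adjusted p = 0.0432) held in 15 of 27 alternatives.

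Class C J-domain genes, which serve set places such as mitochondria, synaptic vesicles and the spliceosome, moved both ways. In vector at 2.0 µM 3 of 22 rose and 6 fell, against 23.4% of all genes higher and 23.8% lower, and in A53T 3 rose and 3 fell, against 19.7% and 17.9%. Changes ran from -0.61 to 0.63 in vector and from -0.65 to 0.83 in A53T. Besides Dnajc17, those that rose in vector were Dnajc14 (0.44 ± 0.07, adjusted p = 2.68e-04) and Dnajc25 (0.58 ± 0.13, adjusted p = 0.00213). Among the falls in vector were ribosome-bound Dnajc2 (-0.24 ± 0.09, adjusted p = 0.04), the Hsp90 and Hsp70 partner Dnajc7 (-0.16 ± 0.05, adjusted p = 0.0279) and mitochondrial Dnajc11 (-0.34 ± 0.05, adjusted p = 1.57e-04). In A53T the others that rose were Dnajc4 (0.54 ± 0.11, adjusted p = 0.00382) and Dnajc24, of diphthamide synthesis (0.53 ± 0.15, adjusted p = 0.0158), and those that fell included Dnajc11 (-0.16 ± 0.06, adjusted p = 0.0447), held in 13 of 27 alternatives, and Dnajc21, of ribosome assembly (-0.41 ± 0.13, adjusted p = 0.032). Dnajc17, which works with splicing factors, had 398 and 426 in DMSO, 199, 196 and 217 at 0.2 µM and 927, 691 and 613 at 2.0 µM in A53T cultures. Vector cultures had 424, 444 and 442 in DMSO, 559, 374 and 379 at 0.2 µM and 611, 809 and 618 at 2.0 µM. The libraries at 2.0 µM were above those in DMSO in both genotypes, and it rose in vector (0.63 ± 0.17, adjusted p = 0.0101) and in A53T (0.83 ± 0.19, adjusted p = 0.00643). It overlaps C3h15orf62 on the other strand. Dnajc14, a J protein of the ER, had 1280.2 and 1251 in DMSO, 1597, 1575 and 1591 at 0.2 µM and 1246, 1209.6 and 1454 at 2.0 µM in A53T cultures. Vector cultures had 1092, 1032 and 1030.5 in DMSO, 1203, 1268 and 1234 at 0.2 µM and 1407, 1351 and 1513 at 2.0 µM. The vector groups rise in order of dose without overlap, and A53T in DMSO lies above vector in DMSO. The interaction was -0.40 ± 0.11 (adjusted p = 0.0279), held in 19 of 27 alternatives.

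Dnajc15, a mitochondrial J protein tied to the protein import motor, had 937 and 904 in DMSO, 387, 401 and 406 at 0.2 µM and 1464, 1139 and 972 at 2.0 µM in A53T cultures. Vector cultures had 1239, 1407 and 1241 in DMSO, 1127, 835 and 897 at 0.2 µM and 761, 1019 and 789 at 2.0 µM. It fell in vector at 2.0 µM (-0.61 ± 0.15, adjusted p = 0.00579) and in A53T differed by 0.35 ± 0.17, which did not pass. Its interaction of 0.96 ± 0.23 (adjusted p = 0.0174) was the only one above 0 among members past the threshold. Dnajc30, another mitochondrial J protein, had 375 and 370.1 in DMSO, 220.0, 262 and 242 at 0.2 µM and 479, 413 and 362 at 2.0 µM in A53T cultures. Vector cultures had 357, 409.7 and 391 in DMSO, 356, 322 and 296 at 0.2 µM and 266, 340.4 and 287 at 2.0 µM. All A53T libraries at 2.0 µM lay above all vector libraries at that dose (0.49 ± 0.12, adjusted p = 0.0149), and in vector Dnajc30 fell (-0.38 ± 0.12, adjusted p = 0.0205).

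Dnajc27, a GTPase with a J domain, had 1918 and 1984 in DMSO, 3228, 3129 and 3101 at 0.2 µM and 1520.2, 1891 and 1777 at 2.0 µM in A53T cultures. Vector cultures had 1984, 2133 and 2009 in DMSO, 2126, 2307 and 2233 at 0.2 µM and 1749.5, 1639 and 1905 at 2.0 µM. It was lower at 2.0 µM than at 0.2 µM in vector (-0.33 ± 0.08, adjusted p = 0.00652), with no overlap. Dnajc28 had low values, 27.2 and 29.8 in DMSO, 96.6, 109 and 95.9 at 0.2 µM and 33.4, 42.02 and 48.7 at 2.0 µM in A53T cultures. Vector cultures had 43.1, 23.5 and 37.2 in DMSO, 45.6, 67.2 and 66.01 at 0.2 µM and 34.1, 36.2 and 40.5 at 2.0 µM. Its rise in vector at 0.2 µM, 0.79 ± 0.24 (adjusted p = 0.0378), held in 18 of 27 alternatives, and it overlaps Son on the other strand. Dnajc5, the cysteine string protein of synaptic vesicles, fell in A53T at 2.0 µM (-0.65 ± 0.23, adjusted p = 0.041), held in 17 of 27 alternatives, and differed in vector by -0.11 ± 0.20. Dnajc6, auxilin, which works with Hspa8 to uncoat clathrin vesicles and is a gene of familial parkinsonism in humans, differed by -0.11 ± 0.17 in vector and -0.37 ± 0.19 in A53T, and neither passed.

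Of the 4 other symbols that match the rule, 1 rose in each genotype at 2.0 µM and none fell, against 23.4% of all genes higher in vector and 19.7% in A53T: Hspbap1 in vector (0.49 ± 0.16, adjusted p = 0.0262), and Hspb11 in A53T (0.54 ± 0.14, adjusted p = 0.0132). Hspb11, a protein of intraflagellar transport, had 314 and 284 in DMSO, 183, 193 and 168 at 0.2 µM and 482, 414 and 408 at 2.0 µM in A53T cultures. Vector cultures had 267, 326 and 287 in DMSO, 343, 235 and 283 at 0.2 µM and 311, 328 and 305 at 2.0 µM. The 3 A53T libraries at 2.0 µM were the highest of all, 0.46 ± 0.13 (adjusted p = 0.0262) above vector at that dose. Hspbp1, an exchange factor for Hsp70, had 3364 and 3183 in DMSO, 1340.4, 1439.7 and 1434 at 0.2 µM and 4871, 3685 and 3597 at 2.0 µM in A53T cultures. Vector cultures had 3558, 3765 and 4181 in DMSO, 3805, 2987 and 3138 at 0.2 µM and 3761, 4773 and 3509 at 2.0 µM. Its vector groups overlap, with 0.06 ± 0.14 at 2.0 µM over DMSO, which did not pass. A53T in DMSO lay below A53T at 2.0 µM and below vector in DMSO without overlap, and neither difference passed.

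Other chaperone systems, from lists drawn up with earlier results of these data known, are given for context at 2.0 µM over DMSO, where 23.4% of all genes were higher and 23.8% lower in vector and 19.7% and 17.9% in A53T. Of 14 ER chaperones, which the rule left out, 11 rose and none fell in vector, and 10 rose and none fell in A53T; Hspa5, the Hsp70 of the ER, rose in vector (1.13 ± 0.07, adjusted p = 2.04e-07) and in A53T (0.81 ± 0.08, adjusted p = 3.19e-05). Of 20 measured Hsp90 cochaperones 4 rose and 3 fell in vector, and 6 rose and 1 fell in A53T. The cyclophilin Ppid rose in vector (0.58 ± 0.07, adjusted p = 1.61e-05) and in A53T (0.41 ± 0.07, adjusted p = 0.00141). Fkbp5, an immunophilin that binds FK506, differed by 0.02 ± 0.06 in vector, which did not pass, and rose in A53T (0.30 ± 0.06, adjusted p = 0.00323). Of 12 subunits of the chaperonin CCT and prefoldin, 3 rose and none fell in vector and 6 rose and none fell in A53T. Of 12 other stress-induced genes, 7 rose and 2 fell in vector and 6 rose and 1 fell in A53T. Among these Serpinh1, the collagen chaperone Hsp47 and a known Hsf1 target, rose in vector (1.19 ± 0.07, adjusted p = 1.46e-07) and in A53T (0.53 ± 0.08, adjusted p = 5.65e-04), with an interaction of -0.66 ± 0.11 (adjusted p = 0.0027).

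Cell type markers moved with the drug, as did many other genes. At 2.0 µM over DMSO 23.4% of all genes were higher and 23.8% lower in vector, and 19.7% and 17.9% in A53T. Summed normalized counts of the 9 astrocyte markers were 42098.7 to 46674 in A53T at 2.0 µM against 75991.3 to 79623 in A53T in DMSO. In vector the sum was 38732.8 to 40575.6 at 2.0 µM against 89151.6 to 91523.2 in DMSO. The 8 neuron markers summed to 38346.4 to 42104.2 in A53T at 2.0 µM against 45436.3 to 46455.1 in A53T in DMSO, and to 33161.5 to 34947.1 in vector at 2.0 µM against 47553.4 to 51365 in DMSO. Of the neuron markers none rose and 5 fell in vector at 2.0 µM, and 1 rose and 5 fell in A53T. The 5 glutamatergic markers summed to 3449.3 to 5407.6 in A53T at 2.0 µM against 9564.2 to 10293.2 in A53T in DMSO, where 4 fell, and to 5915.7 to 7392.2 in vector at 2.0 µM against 10543.3 to 11992.5 in DMSO, where 2 fell. The 4 GABAergic markers summed to 4766.1 to 5386.6 in A53T at 2.0 µM against 7184.8 to 7326.6 in A53T in DMSO, and to 4551.7 to 5061.7 in vector at 2.0 µM against 10739.3 to 11041.7 in DMSO, and 3 fell in each genotype. Of the astrocyte markers 2 rose and 7 fell in vector at 2.0 µM, and 2 rose and 4 fell in A53T. Between A53T and vector at 2.0 µM 5 astrocyte markers were higher and 2 lower, and 3 of 5 measured oligodendrocyte lineage markers were higher, with sums of 4029.7 to 4130 in A53T and 1419.8 to 1478.2 in vector. In the same comparison 3 neuron markers were higher and 1 lower, and 1 glutamatergic marker was higher and 2 lower. None of the 4 GABAergic markers passed, and 9.88% of all genes were higher and 9.7% lower. None of these markers was at 0 in any library. Single genes weigh heavily in the sums: over the libraries Gfap ran from 6176 to 45477 and Olig1 from 860 to 3166. At 2.0 µM over DMSO the median astrocyte marker differed by -0.895 in vector and -0.19 in A53T on the log2 scale. The part of cell makeup in the chaperone values was not tested.

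Between A53T at 0.2 µM and A53T in DMSO most genes were called, 72.7% of members and 67.8% of all genes. Of 66 members 15 were higher (22.7%) and 33 lower (50%) than in A53T in DMSO, against 33.6% and 34.2% of all genes. Against vector at 0.2 µM 14 were higher (21.2%) and 29 lower (43.9%), against 33.8% and 35.1%. A53T at 2.0 µM over A53T at 0.2 µM had 37 higher (56.1%) and 17 lower (25.8%), against 38.7% and 38.5%. Of the 66 members this group had the lowest mean for 35 and the highest for 18. The same count was not made over all genes, so it is not read as a trait of chaperones. The group counts as 1 sample and is assumed to vary like the others. Its differences from A53T in DMSO also recur, reversed, among replicates of other groups. Of the members called in that comparison, 77.1% deviated the opposite way in all 3 libraries that stand apart, each set against the rest of its group. So did 62.5% of all genes, called or not. The source of this shared pattern was not tested. With quantile normalization the median of all genes shifted by -0.20 against A53T in DMSO and by -0.22 against vector at 0.2 µM. For A53T at 2.0 over 0.2 µM it shifted by 0.25. In the fit behind the shares above these medians were -0.002, -0.015 and 0.022, so the larger shifts belong to the quantile-normalized fit only. The astrocyte markers summed to 51507.1 to 51982.9 in this group and the neuron markers to 55536.9 to 56605, against 55198.3 to 60130.8 and 41895.2 to 42404.7 in vector at 0.2 µM. In that comparison 4 astrocyte markers were higher and 3 lower, with a median log2 fold change of 0.284. Of the neuron markers 2 were higher and 2 lower, with a median of 0.058. Single genes weigh heavily in the neuron sum: over all libraries Map2 ran from 72 to 18734 and Syt1 from 119 to 7388.

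Hspa13, an Hsp70-like protein of microsomes, had 299 and 329 in DMSO, 1557, 1464 and 1433 at 0.2 µM and 61.6, 134 and 258 at 2.0 µM in A53T cultures. Vector cultures had 275, 196 and 212 in DMSO, 189.5, 410.0 and 399 at 0.2 µM and 213, 125 and 268 at 2.0 µM. Dnajb14, a J protein of the ER membrane, had 66.3 and 85.1 in DMSO, 558, 554 and 538 at 0.2 µM and 85.7, 60.03 and 69.96 at 2.0 µM in A53T cultures. Vector cultures had 57.5, 59.1 and 58.2 in DMSO, 76.4, 61.4 and 68.4 at 0.2 µM and 57.5, 75.7 and 66.8 at 2.0 µM. For both, the 3 libraries of A53T at 0.2 µM are several-fold above every other library. Their differences from A53T in DMSO were 2.24 ± 0.67 (adjusted p = 0.0103) and 2.86 ± 0.25 (adjusted p = 4.46e-06). Bag4 had 264 and 285 in DMSO, 1384, 1414 and 1347 at 0.2 µM and 147, 216 and 249 at 2.0 µM in A53T cultures. Vector cultures had 187, 168 and 179.9 in DMSO, 230.2, 337 and 324 at 0.2 µM and 235, 157 and 248 at 2.0 µM. Its difference from A53T in DMSO was 2.33 ± 0.32 (adjusted p = 8.85e-05), and Bag4 overlaps Lsm1 in the annotation.

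Of the 3 mitochondrial chaperones Hspa9 was higher in A53T at 0.2 µM than in A53T in DMSO (0.49 ± 0.11, adjusted p = 0.0024) and the other two were lower. Dnajc28 was also higher (1.79 ± 0.36, adjusted p = 8.92e-04). Dnajc19, a J protein of the import motor, had 458 and 443 in DMSO, 186, 185 and 171 at 0.2 µM and 604, 435 and 379 at 2.0 µM in A53T cultures. Vector cultures had 493, 576 and 611 in DMSO, 514, 401 and 415 at 0.2 µM and 404, 496 and 389.6 at 2.0 µM. It was lower in A53T at 0.2 µM than in DMSO (-1.31 ± 0.24, adjusted p = 5.33e-04), and overlaps Fxr1 on the other strand. In the same comparison Hspbp1 (-1.22 ± 0.21, adjusted p = 3.01e-04), Hspe1 (-1.15 ± 0.19, adjusted p = 2.56e-04) and Dnajb1 (-0.83 ± 0.09, adjusted p = 2.69e-05) were lower. Hspa1a (-1.48 ± 0.27, adjusted p = 4.76e-04) and Hspb1 (-1.79 ± 0.36, adjusted p = 8.87e-04) were lower too, while Bag3 and Cryab differed by -0.32 ± 0.15 and -0.05 ± 0.28, which did not pass. Hsp90ab1 was lower (-0.39 ± 0.08, adjusted p = 7.77e-04), but 0.21 higher under quantile normalization.

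**Figure D4:**
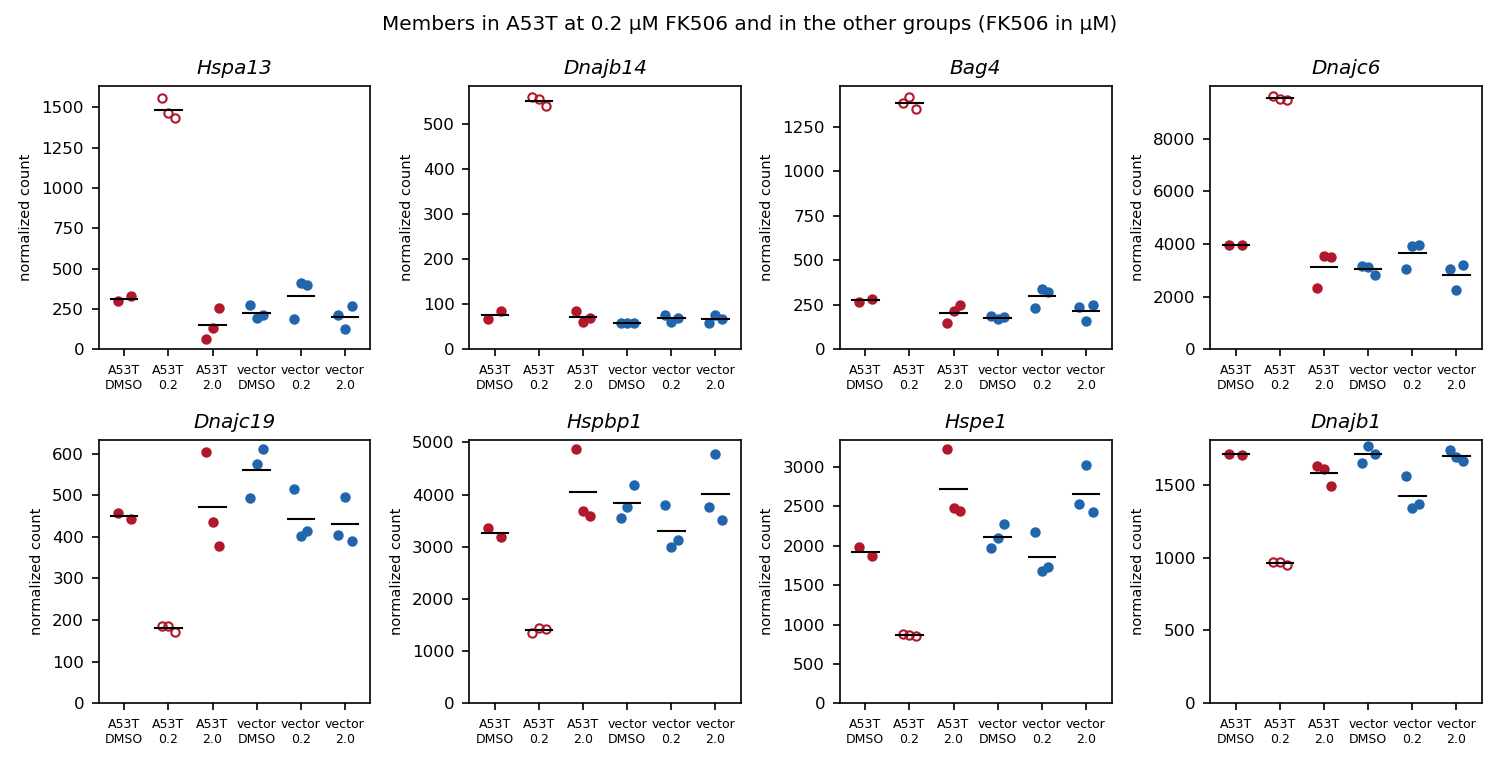
Normalized counts in each library (dots) with group means (bars) of 4 members that were higher and 4 that were lower in A53T at 0.2 µM than in A53T in DMSO; A53T groups in red left of vector groups in blue, by FK506 dose in µM, open circles being the 3 libraries counted as 1 sample. Those open circles lie outside the range of the other 14 libraries in every panel.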

How the data were processed

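The deposited table holds gene counts that the authors normalized, treated here as a signal: non-zero values are not whole numbers, and the normalization method is not given in the sources used here. Per the labels' protocols, RNA was extracted with an RNeasy kit and libraries were made with a TruSeq Stranded mRNA kit; per the submitters' processing notes FastQC, TopHat and HTSeq with the rat build rn6 were used, with no versions given. Libraries were grouped by genotype and treatment. The level of the expressed gene is not reported here. From those values log2(value + 1) was computed. R 4.3.3 ran the fit, which used limma 3.58.1 with its trend option, 1 mean per group, 15 samples, 10 contrasts and Benjamini-Hochberg adjustment over all 11247 genes (threshold 0.05); a minimum mean of 1 removed no gene. The fit was tested on simulated data. The titles number the A53T samples in DMSO 1 and 2 and their columns 1 and 3, so the second was used without a number. Symbols of 65 members matched RefSeq (GRCr8, names and promoters only), and Hspb11 matched a synonym.

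Members and lists were chosen with earlier results of these data known. Values in every sample are given for the heat-inducible members, the Hsf genes and, in each contrast, the 3 largest rises and falls past the threshold with no overlap between groups, 27 members in all, and for Hspb6 and Dnajc14, chosen after their values were seen. Alternatives were other pseudocounts (0.25 and 4), no filter or a minimum mean of 20, quantile normalization, other sample sets, a replicate block and leaving out each library.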

Additional observations from a re-analysis of the deposited data

Results flagged for a closer look

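For 9 members the change at 2.0 µM FK506 over DMSO differed between A53T and vector cultures by limma's interaction test, adjusted over all genes. The difference, A53T response minus vector response on the log2 scale, was -1.96 ± 0.27 (adjusted p = 8.43e-04) for Hspa1a, -1.83 ± 0.11 (adjusted p = 1.74e-06) for Hspa1b and -1.47 ± 0.15 (adjusted p = 1.23e-04) for Bag3. It was -1.60 ± 0.36 (adjusted p = 0.0124) for Hspb1, -0.94 ± 0.28 (adjusted p = 0.0437) for Cryab and -0.74 ± 0.13 (adjusted p = 0.00315) for Hspb6. Smaller differences were -0.38 ± 0.09 (adjusted p = 0.0145) for Hsph1 and -0.40 ± 0.11 (adjusted p = 0.0279) for Dnajc14. Dnajc15 was the only one of the 9 with a difference above 0, 0.96 ± 0.23 (adjusted p = 0.0174). In the 27 alternatives the call held in 26 of 27 for Hspb6, 25 of 27 for Hspb1, 24 of 27 for Dnajc15, 24 of 27 for Hsph1, 19 of 27 for Dnajc14 and 16 of 27 for Cryab, and in all 27 for Hspa1a, Hspa1b and Bag3. A53T in DMSO rests on 2 libraries, and groups of 3 or fewer libraries were not tested for a single outlying value of a gene.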

How the results depend on the processing

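Of 7077 values of called members under the alternatives, 6570 kept direction and call, 503 kept direction only and 4 reversed. The 4 were Hsp90ab1 under quantile normalization: -0.0545 in vector at 2.0 over 0.2 µM, 0.21 in A53T at 0.2 µM over DMSO, 0.076 in A53T over vector at 0.2 µM and -0.35 in A53T at 2.0 over 0.2 µM; the cause was not tested. Counts of members called moved by over 1.5 times as follows, and the share of all genes called, in brackets where given, moved as well. In the main fit that share was 18.3% for vector at 0.2 µM over DMSO and 14.6% for the interaction. For A53T over vector it was 14% in DMSO and 19.6% at 2.0 µM, and for A53T at 2.0 µM over DMSO 37.6%. With all 17 libraries as samples, vector at 0.2 µM over DMSO had 17 (24.4% of all genes) and the interaction 14 (21%). With only the groups compared, A53T over vector had 24 in DMSO (37.1% of all genes) and 7 at 2.0 µM (6.12%). A53T at 2.0 µM over DMSO had 9 (15.9%) in that setting. Leaving out the 3 libraries that stand apart was an alternative added after seeing the data. A53T over vector then had 23 in DMSO (39% of all genes) and 21 at 2.0 µM (33.5%). Vector at 0.2 µM over DMSO had 36 (52.4%) and the interaction 20 (37.8%). Leaving out 1 library at a time gave 2 to 13 for A53T over vector in DMSO, 3 to 18 for vector at 0.2 µM over DMSO, 23 to 40 for vector at 2.0 over 0.2 µM and 9 to 30 for A53T at 2.0 µM over DMSO. It gave 6 to 15 for A53T over vector at 2.0 µM and 4 to 12 for the interaction. For vector at 0.2 µM over DMSO the count was 18 without A53T at 2.0 µM replicate 1, 17, 3 and 4 without vector at 0.2 µM replicates 1, 2 and 3, 6, 3 and 5 without the vector libraries in DMSO, and 7 without either A53T library in DMSO. Without A53T in DMSO replicate 1 the other counts were 2 for A53T over vector in DMSO, 9 for A53T at 2.0 µM over DMSO and 4 for the interaction, and without its other library the last pair were 11 and 5. A53T over vector in DMSO had 13 (20.3% of all genes) without A53T at 2.0 µM replicate 1. A53T over vector at 2.0 µM had 6 without vector replicate 1 and 7 without A53T replicate 2, and vector at 2.0 over 0.2 µM had 23 without vector at 0.2 µM replicate 2 or 3. The cause was not tested. Deviations of libraries from their group mean correlated above 0.1 in 12 of 26 same-numbered pairs and 25 of 52 others. Deviations within so small a group depend on each other, so this count cannot decide whether replicate numbers pair the samples. With the title numbers as a replicate block, the counts were 2 for A53T over vector in DMSO, 5 for vector at 0.2 µM, 8 for A53T at 2.0 µM over DMSO and 3 for the interaction. The second A53T library in DMSO was used without a number, so that block left A53T in DMSO with 1 library. Its counts therefore cannot separate blocking from the loss of that library. The block by column numbers, which keeps both, gave 5, 9, 19 and 8 in the same order and moved no count that far. The block by title numbers did not call Hspa1a, Hspb8 and Hspa12a in A53T over vector in DMSO, and the same limit holds for these. Without raw depth, counting error could not be set beside low genes such as Hsf4 and Hspa1l.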
